A study of Mus musculus with 6 samples.

Results

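Rab GTPases are the largest family of small GTPases of membrane traffic, and their messenger RNA was followed here in long-term haematopoietic stem cells (LT-HSCs) of Dcaf8 knockout and wild-type mice. Members were the protein-coding genes whose symbol is Rab, a number and at most a short suffix, with at least 10 counts in 3 or more of the 6 libraries. Of 59 genes with such a symbol, 50 met the count rule, among 11592 protein-coding genes that met it and 55357 gene identifiers in the table. The remaining 9 were not described further: Rab3b, Rab7b, Rab9b and Rab30 had 0 counts in all libraries, and Rab3c, Rab15, Rab25, Rab26 and Rab42 had counts in only 1 or 2 libraries each. All 50 members passed the filter of the test, 42 had counts in all 6 libraries and 39 had at least 10 counts in each.

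The study compared LT-HSCs from 3 Dcaf8 knockout mice (KO 1 to KO 3) with those of 3 wild-type mice (WT 1 to WT 3), described as young, to find what goes with the functional defects of HSCs that lack Dcaf8. Dcaf8 encodes a substrate receptor of the CUL4-DDB1 ubiquitin ligase. From each bone marrow, 50 Lin-Sca-1+c-Kit+CD150+CD48- cells were sorted, and their mRNA was amplified over its full length and sequenced. Sex, strain, exact age, and whether the knockout was constitutive or driven by a Cre were not given in the sources used here.

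A Rab protein switches between a GDP-bound form in the cytosol and a GTP-bound form on a membrane, where it recruits effectors: tethers, motors and coat adaptors that move or fuse a carrier. Guanine nucleotide exchange factors (GEFs) load GTP, GTPase-activating proteins (GAPs) end the active state, prenyltransferase and its escort proteins attach the lipid anchor, and GDI takes the inactive Rab off the membrane. Each Rab marks particular compartments, so the family serves as a map of the secretory and endocytic routes. In blood cells several members are known for granule and lysosome-related organelle biogenesis, and endosomal Rabs govern the return or degradation of surface receptors.

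Total counts per library were 14461864 to 22386387 in the knockout and 17790290 to 20881139 in the wild-type libraries. Genes with a count numbered 17015, 16854 and 16508 in KO 1 to KO 3. They numbered 16393, 16183 and 15244 in WT 1 to WT 3, fewer than in any knockout library. Dcaf8 had 74.3, 38.1 and 45.2 TMM-normalised CPM (written CPM below) in KO 1 to KO 3, against 291, 293 and 204 CPM in WT 1 to WT 3. The groups did not overlap, with a log2 fold change of -2.28 ± 0.28 (SE, knockout over wild type; edgeR adjusted p = 0.739, DESeq2 adjusted p = 2.13e-09), so the targeted gene itself did not pass edgeR's adjusted threshold. A two-sided exact permutation test gave p = 0.1, the smallest that 3 against 3 libraries allow. All 10 HSC markers (Procr, Mecom, Hlf and others) were counted in all libraries, with a summed level, in CPM of the total count, of 2504 to 2953 in knockout and 2708 to 2806 in wild-type libraries. The sum of 11 neutrophil markers on that scale was 8.76 to 30.0 in knockout libraries, against 11, 6269 and 29.4 in WT 1 to WT 3, with Mmp8 at 0 throughout. KO 3 also differed from the other libraries in sex-linked RNA: on the same scale Xist was at 50.7 there and at most 1.24 elsewhere, and Y-linked genes summed to 4.83 there and to at least 268 elsewhere.

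Most Rab genes had small estimated differences between knockout and wild-type LT-HSCs. Of the 50, 39 had a log2 fold change within 0.5 of 0, and 6 had one of at least 1 in size. The share of all genes within these bounds was not counted. Several of the 39 had an SE above 0.5, such as Rab35 (-0.07 ± 1.25) and Rab17 (-0.15 ± 0.85), so the size of their difference was not determined. No member passed edgeR's quasi-likelihood test after Benjamini-Hochberg adjustment over 14592 genes, where 0 genes (0%) passed, and the members' adjusted p lay between 0.739 and 1. At an unadjusted p under 0.05, 2 members (Rab34 and Rab43) had higher values in the knockout and 0 had lower, where 3.47% of all genes were higher and 2.35% lower (5.82% together). Of the 50 members, 23 had a positive log2 fold change and 27 a negative one, where 50.9% of all genes had a positive one. With limma-voom, and with edgeR without WT 3, 33 members were positive. The median log2 fold change was -0.04, against 0.01 over all genes tested.

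The knockout and wild-type libraries did not overlap for 2 members, Rab34 and Rab5c. Both were higher in the knockout, where 5.91% of all genes were apart in that direction. For 0 members were the knockout libraries all lower, where 4.43% of all genes were (10.3% in either direction). DESeq2 called 1 member, Rab34, where it called 68 of 14430 genes with an adjusted p (0.471%). Having no counts in the wild type, Rab34 met both the count rule for members and the filter of the test only through the knockout libraries, where it is high, so its call is no evidence about the family. limma-voom with sample weights called 0 members and 0 genes (0%), with 1 member and 775 genes at an unadjusted p under 0.05; the DESeq2 counts at that threshold were 1 and 761. Of the replicates, the sample titles give only the cell type, the genotype and a number.

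**Figure D1:**
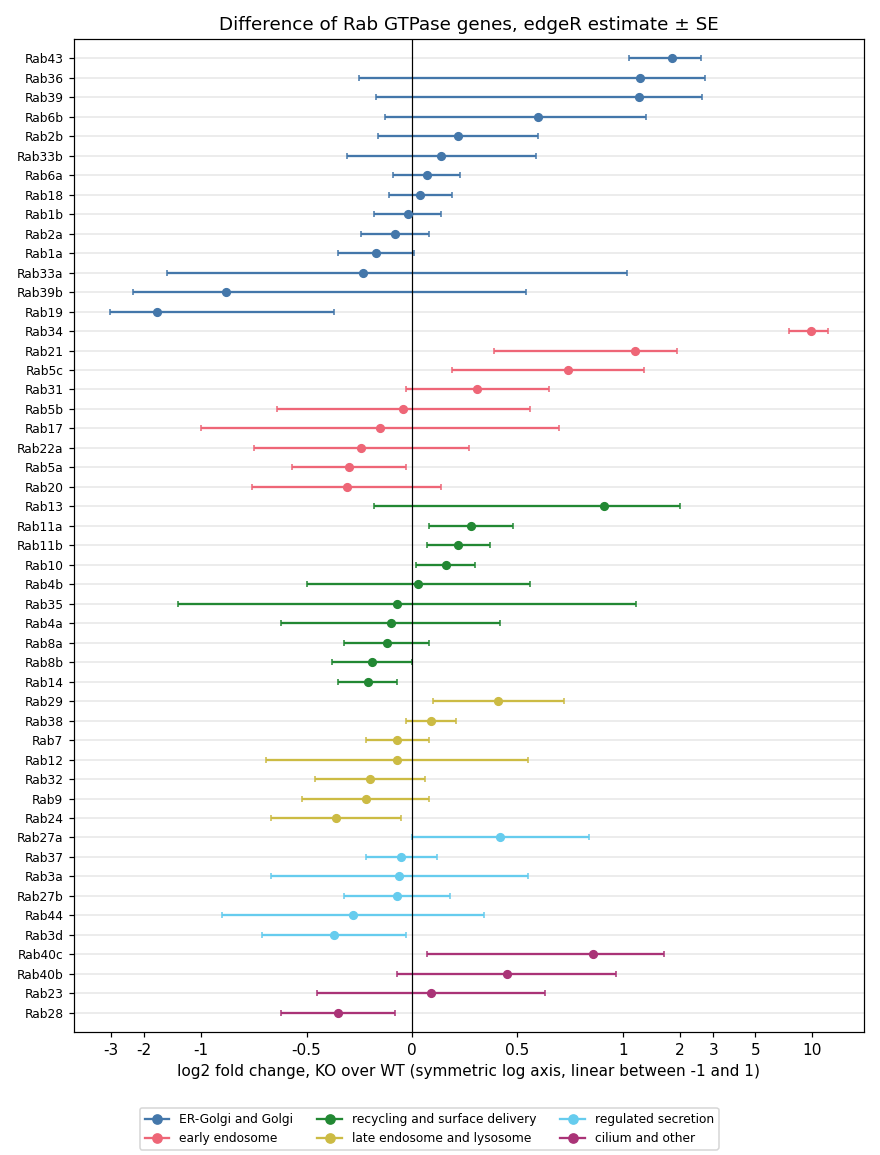
Log2 fold change (knockout over wild type, edgeR estimate ± SE, symmetric log axis) of the 50 Rab genes, coloured and ordered by assigned class of compartment or role. Most estimates lie within 0.5 of 0, and Rab34, with 0 counts in all wild-type libraries, stands at a fitted 9.79.

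Per kilobase of merged exon, the most abundant members served quite different routes. Rab38, a Rab of lysosome-related organelles, averaged 227 CPM per kb in knockout and 212 in wild-type libraries. Next came Rab2a of the early secretory pathway, with 183 CPM per kb in knockout and 193 in wild-type libraries, and Rab7 of late endosomes, with 166 in knockout and 174 in wild-type libraries. Rab1b of the ER-to-Golgi step averaged 122 CPM per kb in the knockout and 123 in the wild type. Rab11a of recycling endosomes averaged 111 in the knockout and 91.5 in the wild type, and Rab10 of surface delivery averaged 90.9 in the knockout and 81.6 in the wild type. The order of these 6 genes was the same in both genotypes, although neighbours such as Rab2a and Rab7 overlapped in their libraries. At the low end, Rab36, Rab43, Rab21, Rab39b, Rab39, Rab35, Rab44 and Rab4b averaged under 1.5 CPM per kb in each genotype. Of their exon length, Rab43 shares 75.4% and Rab4b 65% with a same-strand gene model. The levels of Rab43 and Rab4b could therefore depend on how shared reads were assigned.

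**Figure D2:**
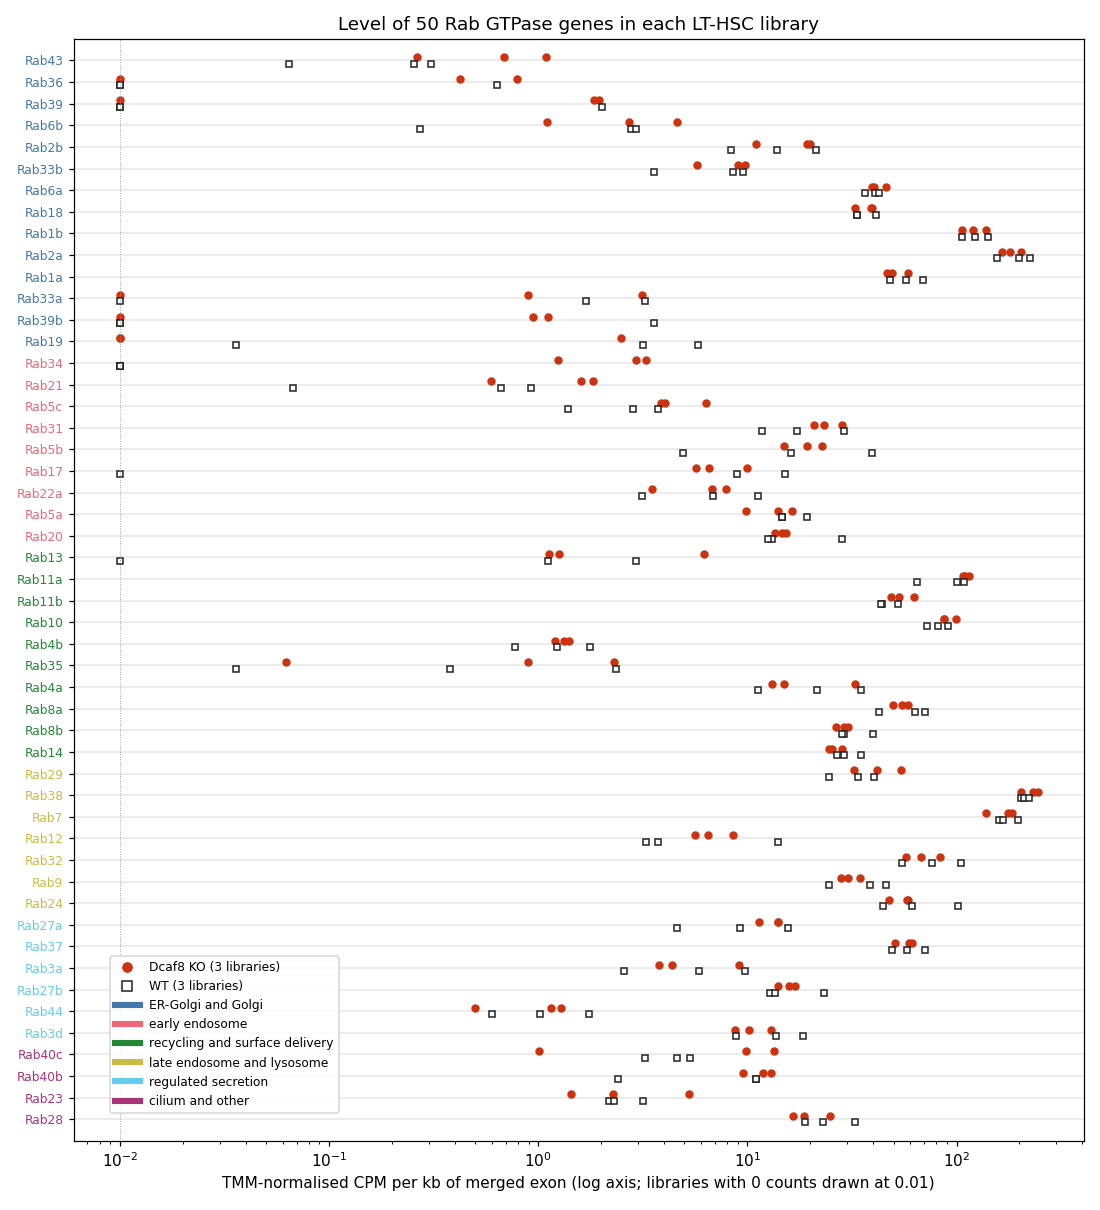
Level of each Rab gene in each library, in TMM-normalised CPM per kb of merged exon on a log axis, with knockout libraries as filled circles above wild-type libraries as open squares; libraries with 0 counts stand at the dotted line. The abundant genes show tight points in both genotypes, Rab34 has wild-type points at the dotted line only, and the low genes scatter widely.

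Among the 14 members of the ER-Golgi route, 8 had positive and 6 negative log2 fold changes, with a median of 0.05. Rab1a and Rab1b, which drive carriers from the ER to the Golgi, did not separate the genotypes. Rab1a had 177, 186 and 223 CPM in the knockout libraries, against 262, 183 and 217 in the wild-type libraries (log2 fold change -0.17 ± 0.18, SE). Rab1b had 315, 273 and 242 CPM in the knockout, against 241, 323 and 278 in the wild type (-0.02 ± 0.16). For both genes the ranges overlapped, and WT 1 held both the highest Rab1a and the lowest Rab1b value. Rab2a, of Golgi-ER traffic, had 353, 432 and 386 CPM in the knockout, against 334, 422 and 481 in the wild type (-0.08 ± 0.16), with WT 3 the highest and WT 1 the lowest. Rab6a, which acts in traffic at and from the Golgi, had 171, 147 and 149.8 CPM in the knockout, against 152, 159 and 136 in the wild type (0.07 ± 0.16). Its libraries were among the most even of the family, with coefficients of variation of 8.26% in the knockout and 7.77% in the wild type. Opposite Mrpl48 lies 19% of the exon length of Rab6a.

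Rab43, a Golgi Rab, had 6.01, 1.46 and 3.80 CPM in the knockout libraries (137, 21 and 84 counts). In the wild-type libraries it had 1.69, 1.41 and 0.355 CPM (30, 29 and 7 counts). KO 1 and KO 3 lay above all wild-type libraries, while KO 2 lay between WT 1 and WT 2, for a log2 fold change of 1.83 ± 0.75 (SE; edgeR unadjusted p = 0.0307, adjusted p = 0.837). In the GRCm38 annotation 75.4% of its exon length is shared with a same-strand gene model, Gm45140, which had 0 counts, so the count could depend on how shared reads were assigned. Rab19 had 3.90, 0 and 0 CPM in the knockout, against 0.0563, 4.99 and 9.13 in the wild type. It was counted in 1 knockout library and barely in WT 1, and the groups overlapped (-1.70 ± 1.33, SE; edgeR unadjusted p = 0.227).

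The other ER-Golgi members did not separate the genotypes. Rab18, found on ER and lipid droplets, averaged 253 ± 25.4 CPM in the knockout and 247 ± 31.2 in the wild type (SD, n = 3 each). Rab33b, which binds the autophagy protein Atg16l1, averaged 28.9 ± 7.50 CPM in the knockout and 25.5 ± 11.3 in the wild type (SD, n = 3 each). Rab2b, the minor paralogue of Rab2a, averaged 69.5 ± 20.7 CPM in the knockout and 60.3 ± 27.0 in the wild type (SD, n = 3 each). Rab6b, the minor paralogue of Rab6a, had 13.6, 5.57 and 23.3 CPM in the knockout, against 13.9, 14.7 and 1.37 in the wild type. WT 3 was low for Rab6b and the groups overlapped. For Rab2b, 59.3% of the exon length lies opposite Gm43766, and the sources used here do not say whether counting used strand. Rab33a, Rab36, Rab39 and Rab39b each had 0 counts in 2 or 3 of the 6 libraries, spread over both genotypes.

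Of the 9 early endosome members, 4 had positive and 5 negative log2 fold changes, with a median of -0.04. Rab34 was grouped here, although it is known for macropinosome formation, lysosome positioning and intracellular ciliogenesis. It had 68, 112 and 154 counts in KO 1 to KO 3 (2.98, 7.80 and 6.97 CPM), against 0, 0 and 0 counts in WT 1 to WT 3. All knockout libraries were above all wild-type libraries. A floor of 3 counts per wild-type library came to 0.156 CPM on average. Set against that floor, the knockout mean of 5.91 ± 2.57 CPM (SD, n = 3) was at least 38.0-fold higher. The floor covers counting error only, not the capture and amplification of RNA from 50 cells. The fold is therefore no bound on expression in the cells. The fitted log2 fold change of 9.79 ± 2.24 (SE) depends on the prior count and is no bound. edgeR gave an unadjusted p of 0.00531 and an adjusted p of 0.739, DESeq2 an adjusted p of 0.000521, and the 14 alternatives gave adjusted p-values between 8.04e-05 and 1. Every wild-type library also detected fewer genes than every knockout library, as given above, and the part of this in such zeros was not tested. Of all genes tested, 54 (0.37%) had 0 counts in all wild-type libraries and 9 (0.0617%) in all knockout libraries. All of these, Rab34 included, passed the filter only through the genotype in which they were counted, so the share is given as a description. In a library of 50 cells, few expressing cells and little RNA per cell cannot be told apart, here or for any other member.

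The Rab5 paralogues bring endocytic vesicles to early endosomes and control their fusion, and Rab21 acts beside them in integrin endocytosis. Their promoters are shown with that of Rab34, because Rab34, Rab21 and Rab5c had the highest log2 fold changes of the class and Rab5a and Rab5b are the paralogues of Rab5c. Each runs from 250 bases before to 50 bases after the most upstream listed start (RefSeq, GRCm38.p6), 5′ to 3′ on the strand of the gene. Capitals mark an E-box (CACGTG, its own reverse complement), a CCAAT box (CCAAT or ATTGG) or a GC box (GGGCGG or CCGCCC). Rab34 lies at chr11:78188177-78188476 (+), Rab5a at chr17:53478984-53479283 (+), Rab5b at chr10:128696219-128696518 (-), Rab5c at chr11:100738166-100738465 (-) and Rab21 at chr10:115315542-115315841 (-).
Rab34: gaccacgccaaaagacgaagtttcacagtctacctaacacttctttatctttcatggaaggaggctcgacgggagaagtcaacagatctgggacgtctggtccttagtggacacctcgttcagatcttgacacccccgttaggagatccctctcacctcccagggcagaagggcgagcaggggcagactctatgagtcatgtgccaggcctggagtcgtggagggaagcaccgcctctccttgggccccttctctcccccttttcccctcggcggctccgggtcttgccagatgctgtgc
Rab5a: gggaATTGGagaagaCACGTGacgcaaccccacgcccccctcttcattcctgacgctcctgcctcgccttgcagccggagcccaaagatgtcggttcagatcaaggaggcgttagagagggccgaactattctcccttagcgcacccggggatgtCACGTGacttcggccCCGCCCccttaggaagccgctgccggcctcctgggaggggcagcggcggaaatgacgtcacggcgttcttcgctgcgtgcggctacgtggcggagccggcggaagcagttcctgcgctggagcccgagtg
Rab5b: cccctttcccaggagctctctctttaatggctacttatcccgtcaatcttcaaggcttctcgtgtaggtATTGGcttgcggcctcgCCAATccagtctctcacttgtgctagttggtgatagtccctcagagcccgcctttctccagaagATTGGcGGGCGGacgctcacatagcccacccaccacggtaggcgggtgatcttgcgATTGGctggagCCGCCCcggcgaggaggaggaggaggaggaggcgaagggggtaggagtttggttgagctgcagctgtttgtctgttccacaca
Rab5c: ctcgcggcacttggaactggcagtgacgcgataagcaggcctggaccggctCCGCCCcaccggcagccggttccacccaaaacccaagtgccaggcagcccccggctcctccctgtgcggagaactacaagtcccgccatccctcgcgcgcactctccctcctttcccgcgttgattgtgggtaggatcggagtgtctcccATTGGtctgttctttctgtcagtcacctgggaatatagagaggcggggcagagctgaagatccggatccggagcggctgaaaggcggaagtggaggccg
Rab21: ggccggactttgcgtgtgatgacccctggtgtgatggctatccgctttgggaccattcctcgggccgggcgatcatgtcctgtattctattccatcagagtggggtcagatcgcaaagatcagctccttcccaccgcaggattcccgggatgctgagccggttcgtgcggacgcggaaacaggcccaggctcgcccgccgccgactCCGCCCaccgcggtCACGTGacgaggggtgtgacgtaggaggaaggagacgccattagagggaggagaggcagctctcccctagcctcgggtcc

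In these 5 windows, Rab34 holds none of the 3 motifs. Rab5a holds 2 E-boxes, 1 CCAAT box and 1 GC box, and Rab5b holds 4 CCAAT boxes and 2 GC boxes. Rab5c holds 1 CCAAT box and 1 GC box, and Rab21 holds 1 E-box, 30 bases before the start, and 1 GC box. Of the 50 members, 42 matched a promoter of the table. A GC box stood in 29 of these (69%), against 35.9% of all 27025 promoters of that length, and a CCAAT box in 20 (47.6%), against 38%. The E-box was found in 5 members (11.9%), against 7.24% of all promoters, and TATAAA or TTTATA in 2 (4.76%), against 14.2%. The promoters of all genes were not limited to protein-coding genes that met the count rule, as the members were. These shares therefore do not set Rab genes apart from other expressed genes. A match is a description of the letters, and no binding was measured.

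Rab5c had 8.90, 13.9 and 8.46 CPM in the knockout libraries, against 3.04, 8.24 and 6.24 in the wild-type libraries. The lowest knockout library, KO 3, lay just above the highest wild-type library, WT 2, and the log2 fold change was 0.74 ± 0.55 (SE; edgeR unadjusted p = 0.213). Its paralogue Rab5a, with overlapping groups and a lower mean in the knockout, had 73.6, 86.4 and 51.7 CPM in the knockout, against 77.1, 77.1 and 102 in the wild type (-0.30 ± 0.27, SE). Rab5b had 80.9, 62.9 and 95.5 CPM in the knockout, against 166, 67.6 and 20.6 in the wild type. Here the knockout libraries sat inside the range of the wild-type ones, whose coefficient of variation was 87.5%, against 20.5% in the knockout. The estimate of -0.04 ± 0.60 (SE) became 0.86 without WT 1 and -0.51 without WT 3.

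Per length, Rab5b made up 51.7%, 39.7% and 62.4% of Rab5 mRNA in the knockout libraries, against 71.1%, 46.7% and 18.1% in the wild-type libraries. Rab5a made up 37.5%, 43.5% and 27.0% in the knockout, against 26.4%, 42.4% and 71.4% in the wild type. Rab5a led in WT 3, Rab5b in WT 1, and neither share separated the genotypes. Rab21 had 8.11, 9.19 and 2.99 CPM in the knockout, against 0.338, 4.65 and 3.35 in the wild type (1.16 ± 0.77, SE; edgeR unadjusted p = 0.167). KO 1 and KO 2 were above all wild-type libraries, but KO 3 was below WT 2 and WT 3. Rab31, of Golgi-endosome traffic, averaged 92.0 ± 14.4 CPM in the knockout and 73.6 ± 33.2 in the wild type (SD, n = 3 each). Rab22a, its close relative on early endosomes, averaged 43.7 ± 16.7 CPM in the knockout and 51.0 ± 29.1 in the wild type (SD, n = 3 each). Rab20 of phagosomes averaged 20.1 ± 1.19 CPM in the knockout and 25.0 ± 12.5 in the wild type, where WT 3 alone was high (SD, n = 3 each). Rab17, known from epithelial recycling, had 0 counts in WT 2 only and averaged 14.8 ± 4.55 CPM in the knockout and 16 ± 15.1 in the wild type (SD, n = 3 each).

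**Figure D3:**
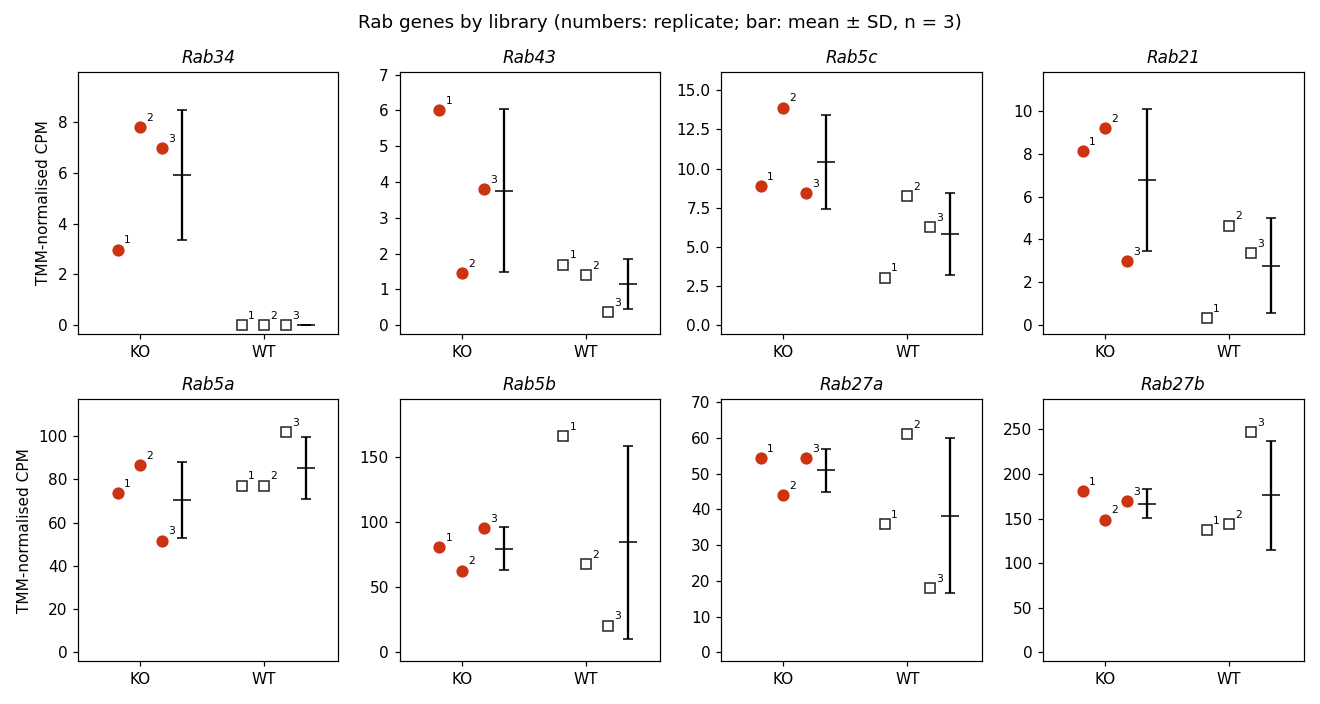
TMM-normalised CPM of 8 Rab genes in each library, with knockout as filled circles and wild type as open squares, replicate numbers beside the points and bars for the mean ± SD (n = 3). Rab34 and Rab5c have all knockout points above all wild-type points, Rab43 and Rab21 have overlapping groups, and Rab5b, Rab27a and Rab27b spread more widely in the wild type.

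Of the 10 Rabs of recycling and surface delivery, 5 had positive and 5 negative log2 fold changes, with a median of -0.02. Rab11a and Rab11b, which run the slow recycling route, were both somewhat higher on average in the knockout. Rab11a had 327, 322 and 344 CPM in the knockout libraries, against 301, 326 and 194 in the wild-type libraries (0.28 ± 0.20, SE; edgeR unadjusted p = 0.2). The knockout values sat in a narrow band, WT 2 reached into it and WT 3 was well below. Without WT 3 the log2 fold change was 0.08. Rab11b had 326, 383 and 299 CPM in the knockout, against 270.0, 267 and 323 in the wild type (0.22 ± 0.15, SE; edgeR unadjusted p = 0.171). The groups overlapped here because WT 3 was above KO 3.

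Rab14, which connects endosomes and the Golgi, had 333, 346 and 386 CPM in the knockout libraries, against 363, 395 and 473 in the wild-type libraries. Only KO 3 reached the wild-type range, and the log2 fold change was -0.21 ± 0.14 (SE; edgeR unadjusted p = 0.173). Rab4a, of the fast recycling route, had 57.3, 23.0 and 26.4 CPM in the knockout, against 37.8, 19.8 and 61.3 in the wild type (-0.10 ± 0.52, SE). The groups overlapped throughout. Rab8a, which delivers carriers to the surface and the cilium, had 233, 258 and 274 CPM in the knockout, against 200.3, 296 and 331 in the wild type (-0.12 ± 0.20, SE). The knockout libraries lay within the wild-type range. Rab8b averaged 135 ± 9.38 CPM in the knockout and 153 ± 31.1 in the wild type, and Rab10 averaged 319 ± 25.0 CPM in the knockout and 287 ± 33.1 in the wild type (SD, n = 3 each). Rab4b, Rab13 and Rab35 averaged 2.59, 6.60 and 3.06 CPM in the knockout and 2.48, 3.11 and 2.60 in the wild type, levels at which single libraries differed widely. For Rab4b, 65% of the exon length is shared with the same-strand gene model Gm21983.

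The late endosome and lysosome class had 7 members, 2 with positive and 5 with negative log2 fold changes and a median of -0.07. Rab7, the master Rab of late endosomes, was the most abundant of all members in CPM not divided by length. It had 362, 459 and 479 CPM in the knockout libraries, against 417, 434 and 512 in the wild-type libraries (-0.07 ± 0.15, SE), and the groups overlapped. Rab9, which returns mannose 6-phosphate receptors to the Golgi, had 52.9, 48.9 and 60.3 CPM in the knockout, against 67.7, 43.0 and 80.9 in the wild type (-0.22 ± 0.30, SE). WT 2 was below and WT 1 and WT 3 were above all knockout libraries; the gene is on the X chromosome, and KO 3, the library with Xist, lay between. Rab24, linked to autophagy, had 117, 118 and 96.0 CPM in the knockout, against 90.0, 124 and 205 in the wild type (-0.36 ± 0.31, SE). WT 3 alone was high, and 62.4% of the exon length of Rab24 lies opposite Prelid1, an abundant gene. If the counting ignored strand, the Rab24 count could depend on how shared reads were assigned.

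Rab32 and Rab38 build lysosome-related organelles such as melanosomes and platelet dense granules. Rab38 had 321, 385 and 365 CPM in the knockout libraries, against 320.5, 332 and 349 in the wild-type libraries (0.09 ± 0.12, SE). The groups overlapped through KO 1. Rab32 had 159, 195 and 134 CPM in the knockout, against 129, 246 and 178 in the wild type (-0.20 ± 0.26, SE), with WT 2 the highest. Per length, Rab38 made up 76.6% ± 3.09 of the pair in the knockout and 73.2% ± 6.07 in the wild type (SD, n = 3 each). Rab29, which recruits the kinase LRRK2, averaged 63.0 ± 16.1 CPM in the knockout and 48.1 ± 11.6 in the wild type (SD, n = 3 each; 0.41 ± 0.31, SE). Rab12, of transferrin receptor degradation, averaged 20.9 ± 4.53 CPM in the knockout and 21.3 ± 18.5 in the wild type, where WT 3 was several times the other wild-type libraries (SD, n = 3 each).

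Of the 6 Rabs of regulated secretion, 1 had a positive and 5 a negative log2 fold change, with a median of -0.07. Rab27a, which docks granules in cytotoxic cells and melanocytes, had 54.4, 43.9 and 54.4 CPM in the knockout libraries, against 35.8, 61.0 and 17.9 in the wild-type libraries (0.42 ± 0.42, SE). WT 2 was above and WT 1 and WT 3 were below all knockout libraries. Rab27b, of platelet dense granules, had 181, 149 and 169.7 CPM in the knockout, against 137, 144 and 247 in the wild type (-0.07 ± 0.25, SE), again with the knockout libraries inside the wild-type range. Per length, Rab27b made up 54.7%, 55.2% and 53.1% of the pair in the knockout, against 58.1%, 46.2% and 83.4% in the wild type. The share was even across knockout libraries and stood highest in WT 3, where Rab27a was lowest.

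Rab37, known from mast cell granules, had 327, 315 and 269.5 CPM in the knockout libraries, against 376, 262 and 308 in the wild-type libraries (-0.05 ± 0.17, SE), and the groups overlapped. Rab3d, a Rab of secretory granules, had 54.2, 42.7 and 36.8 CPM in the knockout, against 37.2, 77.8 and 57.3 in the wild type (-0.37 ± 0.34, SE). WT 2 was the highest library for Rab3d, as it was for Rab3a, Rab27a, Rab32 and Rab44 and, outside the granule and lysosome Rabs, for Rab1b, Rab2b, Rab28 and Rab35. It was the highest for 9 of the 50 members and the lowest for 9, Rab37 among them. WT 2 was also the library whose neutrophil markers summed to 6269 CPM of the total count, against 11 and 29.4 in WT 1 and WT 3; 8 of the 11 markers had 0 counts in at least 1 library, and the part of the neutrophil RNA in these levels was not tested. Without WT 2, the log2 fold change was -0.09 for Rab3d, 0.06 for Rab32 and 0.96 for Rab27a. Without WT 2 and KO 3 together, it was 0.05 for Rab3d and 0.19 for Rab32. Rab3a and Rab44, the large Rab of mast cell granules, averaged 12.8 ± 6.48 and 4.97 ± 2.14 CPM in the knockout and 13.5 ± 7.98 and 5.70 ± 2.95 in the wild type (SD, n = 3 each).

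The last 4 members act at the cilium or in other roles, 3 with positive and 1 with negative log2 fold changes. Rab28, known from photoreceptor cilia, had 84.2, 112 and 74.9 CPM in the knockout libraries, against 104, 148 and 85.3 in the wild-type libraries (-0.35 ± 0.27, SE; edgeR unadjusted p = 0.245). The groups overlapped, with WT 2 the highest. Rab23, a negative regulator of Hedgehog signalling, averaged 24.7 ± 16.6 CPM in the knockout, where KO 2 was high, and 21.1 ± 4.48 in the wild type (SD, n = 3 each). Rab40b and Rab40c carry a SOCS box that joins them to a cullin-5 ubiquitin ligase. Rab40c had 3.11, 30.4 and 41.7 CPM in the knockout, against 16.4, 10 and 14.3 in the wild type (0.86 ± 0.79, SE). Its knockout libraries lay on both sides of the wild-type range, and without KO 3 the log2 fold change was 0.09. Rab40b averaged 23.0 ± 3.59 CPM in the knockout and 16.3 ± 9.96 in the wild type, where WT 1 was low (SD, n = 3 each).

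The median coefficient of variation of the members was 20.9% in the knockout and 42.2% in the wild type, against 28.7% in the knockout and 36.5% in the wild type over all genes tested. The coefficient was lower in the knockout for 38 of the 49 members with a value in both groups (77.6%), where this held for 62.4% of all genes. In the cilium class it ran the other way, with a median of 44.3% in the knockout and 26.2% in the wild type, and among the 32 members with a mean under 100 CPM it was 40.6% in the knockout and 57.1% in the wild type. WT 3 was the highest library for 18 of the 50 members and the lowest for 10, and WT 1 was the lowest for 14. The summed CPM of all members was even all the same, at 5339, 5634 and 5441 in the knockout libraries and 5232, 5457 and 5854 in the wild-type libraries. For the 18 members with a mean of at least 100 CPM, all log2 fold changes were between -0.36 and 0.28, 6 positive and 12 negative. Of all 2878 genes tested at that level, 1299 were positive and 1579 negative. For the 32 members below that level, log2 fold changes ran from -1.70 to the fitted 9.79 of Rab34. In 13 families of paralogues, which include Rab8a with Rab8b and Rab1a with Rab1b, no share per length separated the genotypes. The sign of the log2 fold change was the same in all 6 fits without 1 library for 24 members and changed in at least 1 of them for 26.

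The proteins that load, unload and read out Rabs were taken from 4 lists of known regulators and effectors. None of their genes passed edgeR's adjusted test, where 0% of all genes did. Of the Rab GEFs and GEF subunits, 32 of 33 were tested, with 22 positive and 10 negative log2 fold changes and a median of 0.08. At an unadjusted p under 0.05, 3 were higher and 1 was lower in the knockout, where 3.47% and 2.35% of all genes were. Of the Rab GAPs, 33 of 34 were tested, with 19 positive and 14 negative, a median of 0.11, and 0 in either direction at that threshold. Of the prenylation and GDI genes, 8 of 9 were tested, with 5 positive and 3 negative, a median of 0.02 and again 0 in either direction. Of the effectors, 46 of 53 were tested, with 23 positive and 23 negative, a median of 0.00, and 0 higher and 1 lower.

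Rabgef1 (Rabex-5), the GEF of Rab5, had 55.3, 38.8 and 59.4 CPM in the knockout libraries, against 24.8, 22.3 and 18.1 in the wild-type libraries. All knockout libraries were above all wild-type ones. The log2 fold change was 1.27 ± 0.33 (SE), with an edgeR unadjusted p of 0.00525 and adjusted p of 0.739, a DESeq2 adjusted p of 0.0647, and a range of 0.0123 to 1 over 14 alternatives. Eea1, the tether that Rab5 recruits to early endosomes, had 8.64, 18.4 and 25.9 CPM in the knockout, against 42.9, 32.2 and 44.0 in the wild type. Here all knockout libraries were below all wild-type ones (-1.18 ± 0.44, SE; edgeR unadjusted p = 0.029, adjusted p = 0.837). A second GEF, Rab3il1, which acts on Rab3a and Rab8, had 78.1, 43.5 and 61.1 CPM in the knockout, against 24.7, 35.7 and 28.4 in the wild type. These groups did not overlap either (1.07 ± 0.33, SE; edgeR unadjusted p = 0.013, adjusted p = 0.75).

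Ccz1, a subunit of the Rab7 GEF, is named because it was also apart, a choice made after its values were seen. It had 79.9, 123 and 88.3 CPM in the knockout libraries, against 61.2, 69.7 and 35.0 in the wild-type libraries (0.79 ± 0.31, SE; edgeR unadjusted p = 0.0391, adjusted p = 0.841). Rabif (Mss4), a chaperone-like partner of exocytic Rabs, had 138, 112 and 148 CPM in the knockout, against 205, 166 and 202 in the wild type. All knockout libraries were lower (-0.51 ± 0.18, SE; edgeR unadjusted p = 0.021, adjusted p = 0.781). Hps4, a subunit of the GEF of Rab32 and Rab38, had 36.4, 28.3 and 46.1 CPM in the knockout, against 95.8, 56.3 and 48.2 in the wild type. Its groups were apart by the small gap between KO 3 and WT 3 (-0.81 ± 0.36, SE; edgeR unadjusted p = 0.0588). Thus 3 GEF genes were apart and higher and 2 apart and lower, where 5.91% and 4.43% of all genes were.

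Of the GAPs, the smallest unadjusted p in each direction belonged to Tbc1d9 and Tbc1d15 (log2 fold changes of 1.20 ± 0.71 and 0.30 ± 0.17, SE) and to Evi5 and Tbc1d25 (-0.75 ± 0.47 and -0.54 ± 0.40, SE), all with overlapping groups. Tbc1d15, known as a GAP of Rab7, was the most abundant of these 4, at 225 ± 32.7 CPM in the knockout and 182 ± 21.9 in the wild type (SD, n = 3 each). Tbc1d7 and Tbc1d10c were apart and lower, with log2 fold changes of -0.37 ± 0.31 and -0.26 ± 0.22 (SE), and are named after their values were seen; they are 2 of 33 GAPs tested, where 4.43% of all genes were apart and lower. Rabggtb, the catalytic subunit of the Rab prenyltransferase, had 27.9, 62.1 and 67.6 CPM in the knockout libraries, against 103, 58.3 and 119 in the wild-type libraries. WT 2 lay below KO 2 and KO 3, so the groups overlapped (-0.85 ± 0.40, SE; edgeR unadjusted p = 0.0711). Gdi2, which recycles inactive Rabs, averaged 354 ± 19.1 CPM in the knockout and 330.0 ± 29.2 in the wild type (SD, n = 3 each). Chm, the Rab escort protein, had 32.8, 47.5 and 26.3 CPM in the knockout, against 53.7, 0.0485 and 23.1 in the wild type, with WT 2 near 0.

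Among effectors, Micall1, which acts on tubular recycling endosomes, had 6.49, 4.11 and 7.87 CPM in the knockout libraries, against 9.06, 14.2 and 17.6 in the wild-type libraries. All knockout libraries were lower (-1.10 ± 0.51, SE; edgeR unadjusted p = 0.0643), and 26.7% of its exon length lies opposite another gene. Mical1, an actin oxidase that binds Rabs, had 34.1, 54.5 and 34.1 CPM in the knockout, against 12.2, 27.3 and 0 in the wild type, and all knockout libraries were higher (1.56 ± 0.70, SE; edgeR unadjusted p = 0.0596). The estimate was 2.77 without WT 2 and 0.98 without WT 3, and 15% of the exon length of Mical1 lies opposite Smpd2. Rph3al, a Rab27 effector, had 2.54, 4.87 and 2.71 CPM in the knockout, against 0, 2.86 and 0 in the wild type, and the groups overlapped. Appl2, an early endosome adaptor, and Inpp5b, an inositol phosphatase, were also apart and lower, with log2 fold changes of -0.54 ± 0.29 and -0.36 ± 0.21 (SE); they too are named after their values were seen. In all, 1 of the 46 effector genes tested was apart and higher and 4 were apart and lower, where 5.91% and 4.43% of all genes were.

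**Figure D4:**
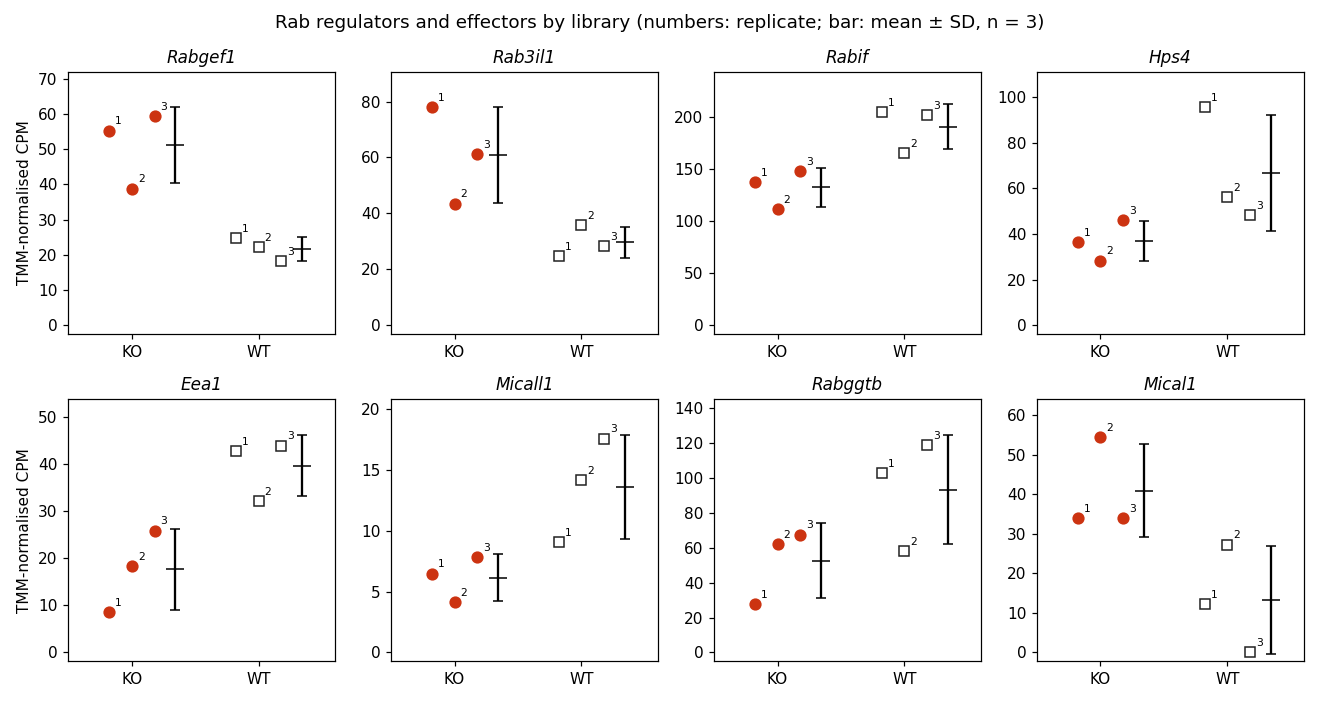
TMM-normalised CPM of 8 Rab regulators and effectors in each library, with knockout as filled circles, wild type as open squares, replicate numbers beside the points and bars for the mean ± SD (n = 3). Rabgef1, Rab3il1 and Mical1 have all knockout points above the wild-type points; Rabif, Hps4, Eea1 and Micall1 have them all below, and the Rabggtb groups overlap.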

How the data were processed

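Sorted LT-HSCs of 3 knockout and 3 wild-type mice gave 1 deposited table of unnormalised read counts per gene, with a column per library and no pooling by the authors. Trimmomatic 0.39, HISAT2 2.2.1, Picard 2.26.1, HTSeq 1.99.2, DESeq2 1.38.3 and the build mm39 are named per the submitters' processing notes; the sources used here do not give the annotation, strand setting or duplicate handling. Without molecular identifiers, counts are PCR reads rather than molecules.

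Gene identifiers were matched to symbols (94.1% matched, holding 99.87% of the counts); value columns left unused numbered 0. All genes were tested with edgeR 4.0.16 in R 4.3.3 (filterByExpr with a minimum count of 10 and total of 15, TMM, robust quasi-likelihood fit with legacy off, genotype as the only term, Benjamini-Hochberg threshold 0.05). SEs were derived from the F statistic. The script was tested on simulated data. Marker sums are CPM of the total count; other levels are TMM-normalised. Lengths and exon overlaps come from a GRCm38 annotation, another build than the counts. Alternatives were RLE factors, no filter, DESeq2 1.42.0, limma-voom (limma 3.58.1), the legacy fit, a replicate block and leaving out libraries. The members and lists were chosen with earlier results of these data known. Genes named with values by library were well-known members, up to 6 per direction with the smallest unadjusted p, members at 0 in a whole genotype or with groups apart, and 2 genes per regulator list and direction; 1 of these is not reported here.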

Additional observations from a re-analysis of the deposited data

How the results depend on the processing

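With RLE factors, no filter or the legacy quasi-likelihood fit, no result changed its direction or its side of the threshold. DESeq2 called 1 Rab gene, Rab34, and 68 genes in all, with Dcaf8 at -2.32 (DESeq2 adjusted p = 2.13e-09). DESeq2 without a filter, added after seeing the data, called 1 Rab gene and 153 genes, with Dcaf8 at -2.32 (adjusted p = 1.98e-09), Rab34 at 9.27 and Rabgef1 at 1.23 (DESeq2 adjusted p = 0.0123). limma-voom gave a Rab median of 0.11 with 33 members positive, and turned Rab4a (0.04), Rab5b (0.21), Rab27b (0.04) and Rab37 (0.01). Fits without 1 library gave a Rab median of -0.05 to 0.08 (0.05 without WT 2, 0.08 without WT 3, 0.06 without KO 3) with 22 to 33 members positive, and Dcaf8 at -2.64 to -2.13; without WT 2 and KO 3 together, added after seeing the data, the Rab median was 0.05. Over these fits the log2 fold change turned for 13 named Rab genes and for Chm. The lowest and highest values were -0.13 and 0.18 for Rab1b, -0.21 and 0.05 for Rab2a, -0.60 and 0.05 for Rab3d, -0.66 and 0.38 for Rab4a, -0.51 and 0.86 for Rab5b, -0.01 and 0.15 for Rab6a, -0.19 and 0.04 for Rab7, and -0.30 and 0.04 for Rab8a. They were -0.58 and 0.03 for Rab24, -0.22 and 0.25 for Rab27b, -0.50 and 0.03 for Rab28, -0.40 and 0.19 for Rab32, -0.17 and 0.09 for Rab37, and -0.14 and 1.60 for Chm. WT 3 turned the most, at 6: Rab2a, Rab4a (0.38), Rab7 (0.03), Rab8a, Rab24 and Rab27b (0.25). The cause was not tested. Same-numbered libraries did not deviate together (r across genes of 0.0593, -0.0381 and 0.0058), so the numbers were not taken as pairs; with the replicate block, 0 Rab genes and 0 genes in all were called, the Rab median was 0.02, 26 members were positive, Dcaf8 stood at -2.29 and Rab5b at 0.09. With 50 cells per library, a gene of a few CPM can be missed by sampling. Zeros were not limited to such levels: Rab17 had 0 counts in WT 2, against 17.8 CPM in WT 1 and 30.1 CPM in WT 3. What lies behind such zeros was not tested.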
